A study of Rattus norvegicus with 12 samples.

Results

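The comparison set whole kidneys of calorie-restricted rats (CR) against whole kidneys of freely fed rats (ad libitum, AL), both at 24 months of age. Arrays were chosen by their titles, 4 labelled aged CR and 4 labelled aged AL, and made up 8 of the 12 arrays of the series. The remaining 4 arrays came from freely fed rats of 4 months and were not compared. They entered the normalisation, the choice of probes to test and the estimate of the spread. RNA was measured on single-colour CodeLink whole genome arrays for the rat, which carry 33849 gene probes.

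All rats were male Fisher F344, an inbred strain, bought from a colony of the National Institute on Aging. The CR rats received 10% less food from week 10 of life, 25% less from week 15 and 40% less from month 4 onward, and the AL rats ate freely at 24 months as at 4. No treatment other than diet was recorded, and kidneys were taken under ketamine and xylazine and snap frozen. The labels do not say whether RNA came from single rats or from pools, and the hour of death and the time since the last meal are not given in the sources used here. A whole kidney mixes tubules, glomeruli, vessels and blood, so that fewer cells of a type and less RNA per cell cannot be told apart.

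Calorie restriction lowers food intake without malnutrition, and it lengthens life and delays kidney disease in rats. The tubule cells of the kidney burn fatty acids for much of their energy, and the nuclear receptor PPAR-alpha switches the genes for that on when food is scarce. The proximal tubule also makes glucose, and glucocorticoids, the adrenal hormones of stress and fasting, raise gluconeogenic enzymes and a set of marker genes such as Fkbp5 and Per1.

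With restriction, 23 of 48 genes of fatty acid oxidation and ketogenesis were lower, and so were 16 of 37 genes of the glucocorticoid receptor and its targets. Of 43 genes of gluconeogenesis and amino acid breakdown 7 were lower, among them Pck1, which is counted among those 16, and G6pc1. Of 57 cell cycle genes 22 were higher and the other 35 were not called. Higher in smaller steps were 10 of 34 interferon response genes, 17 of 67 matrix genes and 10 of 31 genes of Henle's loop and the distal tubule, but after array median scaling only 4, 5 and 1 of these lists were called higher. Of 37 tubular injury markers 6 were lower, and of 25 genes of T and natural killer cells 5. Of 25398 probes tested, 3397 (13.4%) were called at an adjusted p below 0.05, 1878 higher in CR (7.39%) and 1519 lower (5.98%). By at least 2-fold, 203 probes were higher and 218 lower (1.66% of those tested). The 4 CR and 4 AL values did not overlap at 8258 of the tested probes (32.5%), so that groups without overlap were common. Among the 11016 named genes tested, 619 were called higher (5.62%) and 741 lower (6.73%), which is the background for every list below. The direction of the whole depends on the scaling: 55.3% of the calls were higher in CR after quantile normalisation and 43.2% after array median scaling, which called 1019 probes higher and 1338 lower.

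Some arrays of a group differed no more than repeat spots of 1 array. Over 9026 bright probes the difference between arrays was expressed as an SD per array on the log2 scale and set against that of repeat spots on 1 array. CR arrays 1 and 3 and CR arrays 2 and 4 differed no more than repeat spots (SD 0.0898 and 0.0968), while the other CR pairs differed by 0.114 to 0.154. The 4 AL arrays differed by 0.0627 to 0.0893, and 5 of their 6 pairs lay within the limit of repeat spots, while AL arrays 1 and 4 lay just above it (0.0875 against 0.0871). Joined on this likeness, the arrays were counted as 2 CR samples and 1 AL sample in a second fit. The labels do not say whether they were repeats of 1 RNA sample. CR and AL arrays differed by 0.151 to 0.197. Young arrays that were not joined differed by 0.231 to 0.259, more than any CR and AL pair. The CR and AL range thus does not exceed that between samples of 1 group. Calls come from limma over arrays, and their p-values measure the spread between arrays only. Over the joined samples, 5 with the young ones, limma called 0 probes. At an unadjusted p below 0.05 stood 1207 probes there, against 1269.9 that no change at all would give. The standard errors below come from that 5-sample fit (2 CR samples, 1 AL sample and 2 young ones), and the spread of the AL group is taken from the other groups. Against the same 4 AL arrays, CR arrays 1 and 3 alone gave 1483 called probes and CR arrays 2 and 4 alone 1739.

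**Figure D1:**
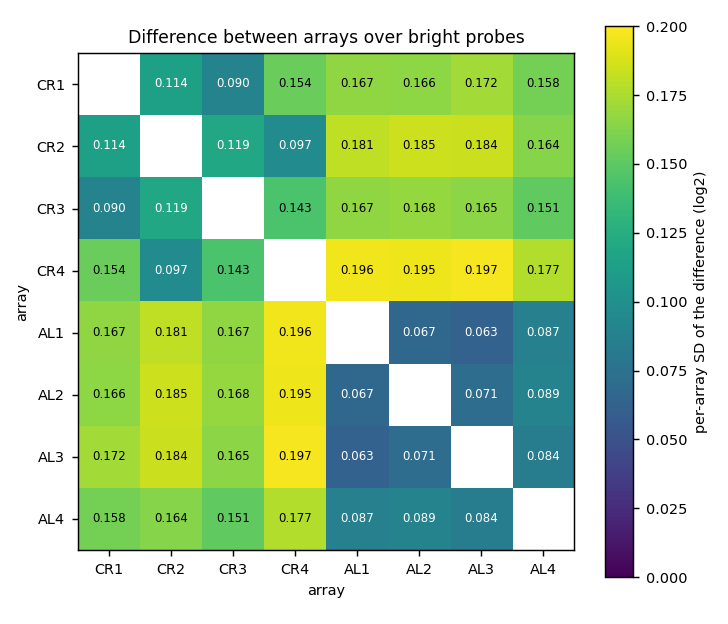
Per-array SD of the log2 difference between each pair of the 8 arrays over bright probes, with arrays on both axes. CR arrays 1 and 3 (0.090), CR arrays 2 and 4 (0.097) and the 4 AL arrays (up to 0.089) lie close together. CR and AL arrays differ by 0.151 to 0.197, and the other CR pairs by up to 0.154.

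Per the file headers, all AL image files carry 1 date and all CR and young ones another. Whether that is the day of scanning is not stated, and the date and the diet cannot be told apart. The first characters of the image file names put the arrays in 2 groups, taken here as slide series from those names alone. CR arrays 3 and 4 shared their series with the AL arrays. Within that series 4142 probes were called, in a fit of CR arrays 3 and 4 and the 4 AL arrays without the young ones. A fit of all 8 aged arrays without the young ones called 7292. Counts within this slide series, here and below, thus cannot be set against those of fits that hold the young arrays. The fit with the slide series as a block also takes its changes from CR arrays 3 and 4 against the AL arrays. It differs from the fit within the series in the estimate of the spread only, so that they are not separate checks. CR arrays had median intensities after background subtraction of 130.1 to 159.2, against 113.7 to 130.4 on AL arrays, and 72.5% to 74.8% of gene probes lay above background in CR against 71.5% to 73.7% in AL. Two-sided exact permutation tests gave p = 0.0571 for each measure (adjusted p = 0.0571 over both), where 4 arrays against 4 cannot go below 0.0286. The kidney's own markers were present in both groups. Lrp2, the endocytic receptor megalin of the proximal tubule, read 14.45 to 14.57 on CR arrays and 14.43 to 14.52 on AL arrays, in log2 of normalised intensity, the unit of every level below. Levels of different probes cannot be compared with each other.

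**Figure D2:**
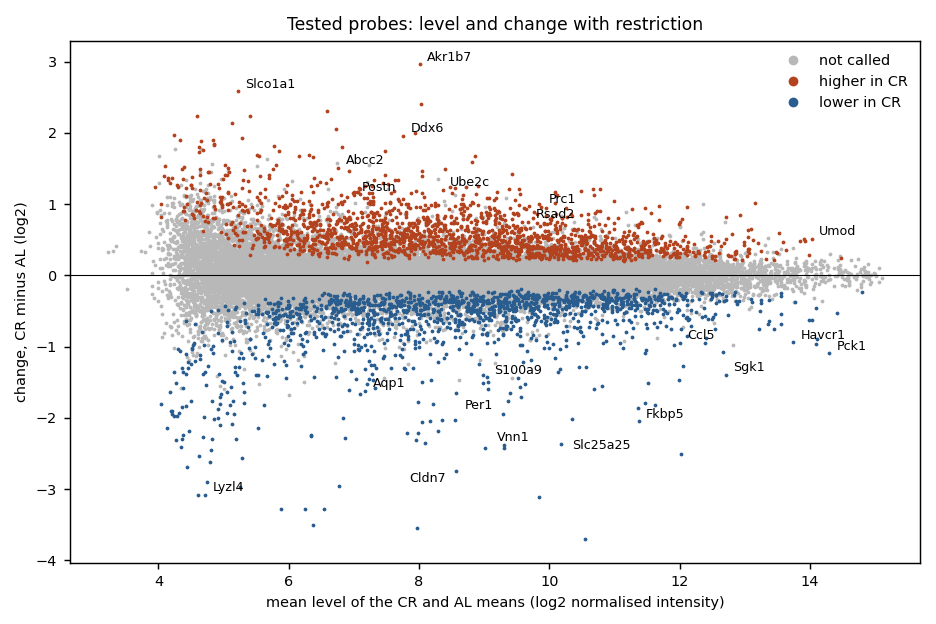
Each dot is a tested probe, with its mean log2 intensity on the horizontal axis and its change, CR minus AL, on the vertical axis. Probes called higher (1878) and lower (1519) lie at dim and bright levels alike. The labels mark named genes, such as Akr1b7 at the top, and the lowest points are probes without a single gene symbol.

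Genes of fatty acid oxidation and ketogenesis fell in part. Of 48 tested genes, 23 fell in CR (47.9%, background 6.73%), 1 rose and 24 were not called, with a median change of -0.38 against -0.0047 over all named genes. Vnn1, a pantetheinase whose gene is a classical PPAR-alpha target, read 8.20, 8.06, 8.03 and 8.07 on the CR arrays and 10.62, 10.56, 10.56 and 10.31 on the AL arrays. It fell by 2.42 on the log2 scale (SE 0.25, limma adjusted p = 7.75e-07), with a wide gap between the groups. Acot12, which hydrolyses acetyl-CoA in the cytosol, fell by 1.66 (SE 0.39).

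The other called genes covered the steps of the pathway in turn. Among enzymes that activate or import fatty acids, Acsl1 fell by 0.62, Acsl3 by 0.50 and Slc27a2 by 0.35. In mitochondrial beta-oxidation, the medium-chain and very-long-chain dehydrogenases Acadm and Acadvl fell by 0.33 and 0.27, Acad11 by 1.02, the trifunctional protein subunit Hadhb by 0.49, Hadh by 0.40 and the thiolase Acaa2 by 0.53. Decr1, Eci1 and Ech1, which handle double bonds, fell by 0.59, 0.63 and 0.64. Etfdh, which passes the electrons of these steps to ubiquinone, fell by 0.41. The peroxisomal genes Ehhadh, Pex11a, Hacl1, Acaa1b and Hsd17b4 fell by 1.02, 0.88, 0.80, 0.68 and 0.50. The fatty acid omega-hydroxylase Cyp4a8 fell by 0.75, but its 2 other probes stood at -0.21 and 0.17 and were not called, and Acot1 fell by 0.34.

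Not every gate of the pathway passed the test. Cpt1a, which controls the entry of long-chain fatty acids into mitochondria, stood at 11.76, 11.80, 11.83 and 11.99 on the CR arrays and 12.01, 12.25, 12.03 and 12.17 on the AL arrays, a change of -0.27 (adjusted p = 0.311). The groups did not overlap, but the gap was narrow. Ppara, the receptor itself, was a dim gene at 4.99, 5.13, 4.92 and 4.96 on the CR arrays and 5.21, 5.44, 5.81 and 5.21 on the AL arrays (change -0.42, adjusted p = 0.12). The 1 member that rose was Bdh1, the dehydrogenase that interconverts the ketone bodies acetoacetate and beta-hydroxybutyrate. Bdh1 read 10.42, 10.44, 10.37 and 10.42 on the CR arrays and 9.65, 9.62, 9.62 and 9.68 on the AL arrays, without overlap, and rose by 0.77 (SE 0.19, adjusted p = 7.84e-06).

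**Figure D3:**
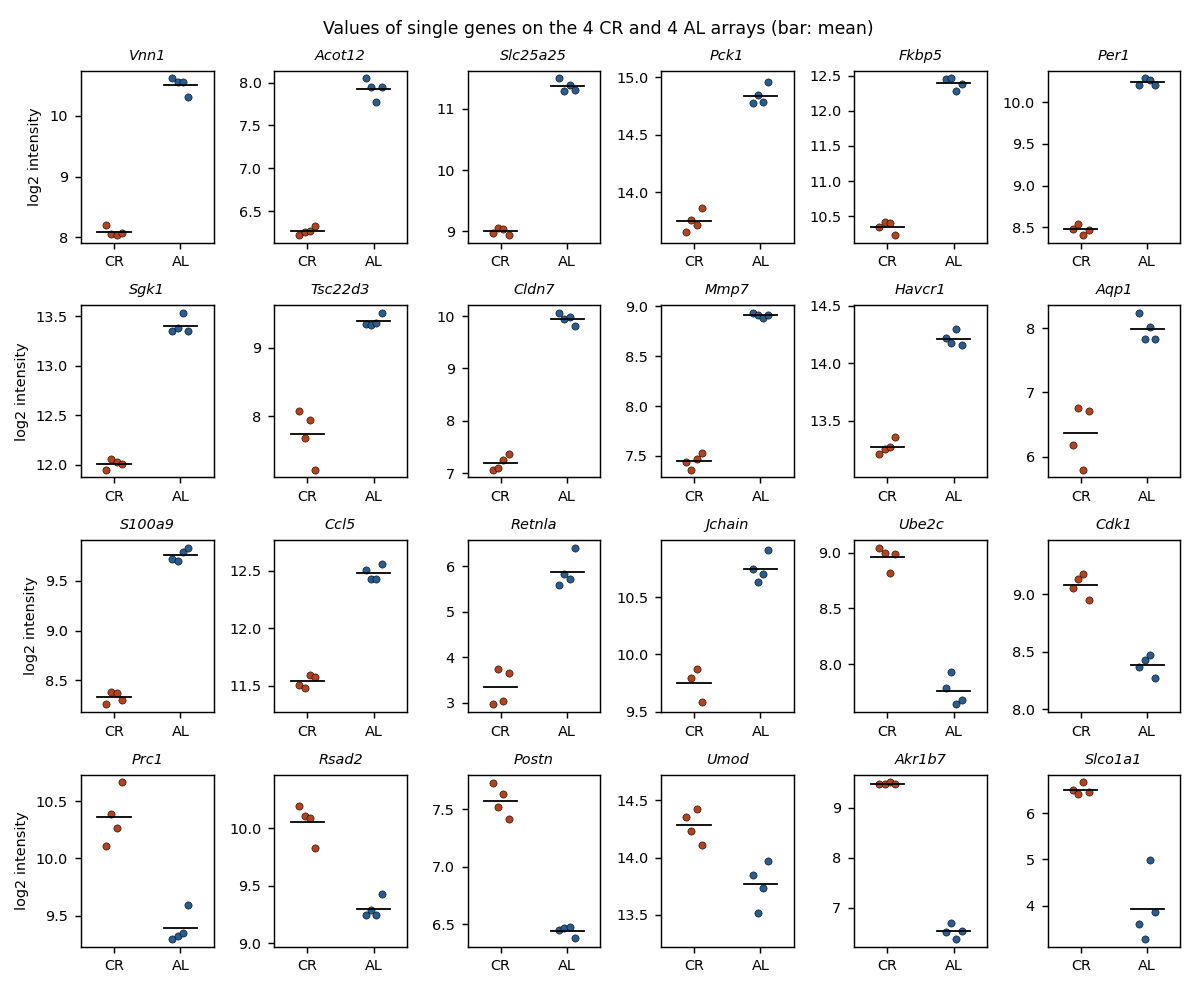
Log2 normalised intensity of 24 genes on the 4 CR arrays (left in each panel) and the 4 AL arrays (right), 1 point per array (Jchain lacks CR array 1), with the mean as a bar. The groups do not overlap in any panel. In the upper 2 rows and the first 4 panels of the third the CR values lie below, as for Vnn1 (8.03 to 8.20 in CR, 10.31 to 10.62 in AL), and in the last 8 panels they lie above.

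The list of PPAR-alpha and fasting-responsive targets, which shares 5 called genes with the one above, had 11 of 26 genes lower (42.3%), 1 higher and a median of -0.34. Slc25a25, a mitochondrial carrier for ATP-Mg and phosphate, read 8.98, 9.05, 9.04 and 8.94 on the CR arrays and 11.50, 11.29, 11.38 and 11.31 on the AL arrays, and fell by 2.37 (SE 0.41, adjusted p = 3.35e-05). Angptl4, a secreted inhibitor of lipoprotein lipase, fell by 1.52. The triglyceride lipase Pnpla2 fell by 0.62, the retinol saturase Retsat by 0.55 and the coactivator Ppargc1a by 0.34, the last with a second probe at 0.04 that was not called. Lpin1, a phosphatidate phosphatase and coactivator, rose by 0.36 (adjusted p = 0.0456). Depp1, which responds to fasting and to progesterone in other tissues and was on neither list, fell by 2.02 (SE 0.31). With CR arrays 1 and 3 alone 7 genes of this list were called lower, and with CR arrays 2 and 4 alone 8, and 7 with the slide series as a block. For fatty acid oxidation the count was 12 with either pair alone, from 18 to 21 with any 1 array left out, 17 after array median scaling, 13 with the slide series as a block, and 27 within the slide series that held both diets.

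Markers of fat cells were lower in part beside these genes. Of 17 adipocyte and lipid storage genes, 5 were lower and 0 higher (median -0.24), and 3 were lower without CR array 1 or 2 or AL array 2, 3 or 4. Fabp4, a fatty acid carrier, fell by 0.97, the adipokine Cfd by 0.84 (adjusted p 0.0613 to 0.0914 with any 1 array left out) and the lipases Lipe and Lpl by 0.55 and 0.51. The summed normalised intensity of the 16 members measured on all 8 arrays ran from 28589 to 29930 in CR and from 36067 to 37467 in AL. The defining marker Adipoq read 6.83 to 7.44 in CR and 7.40 to 7.66 in AL (change -0.37, adjusted p = 0.074), Lep was not called at 4.75 to 5.10 in CR and 4.64 to 5.09 in AL, and Plin1 was too dim to be tested. Their part in the fatty acid genes was not tested. Of 49 proximal tubule genes, 5 fell and 1 rose, with 3 or 4 lower when any 1 array was left out and 1 with the slide series as a block. Genes of lipid synthesis moved little as a list (2 higher and 3 lower of 38), with the transcription factor Srebf1 higher by 0.64 (adjusted p 0.0558 to 0.114 with any 1 array left out) and the elongase Elovl6 lower by 0.51. The respiratory chain list had 1 gene higher and 2 lower of 59, and after array median scaling 7 were lower.

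Genes that respond to glucocorticoids fell in nearly the same proportion. Of 37 tested genes of the receptor and its targets, 16 were lower (43.2%), 1 higher and 20 not called (median -0.33). Fkbp5, the co-chaperone through which the receptor dampens its own hormone binding, was among the largest falls of the comparison with both of its probes. It read 10.34, 10.41, 10.40 and 10.23 on the CR arrays and 12.45, 12.46, 12.28 and 12.39 on the AL arrays, and fell by 2.05 (SE 0.36, adjusted p = 3.24e-05). Per1, a clock gene that glucocorticoids induce directly, read 8.48, 8.54, 8.41 and 8.47 on the CR arrays and 10.21, 10.28, 10.27 and 10.21 on the AL arrays. It fell by 1.77 (SE 0.20, adjusted p = 7.51e-08), with both probes called and no overlap. Sgk1, the kinase that raises sodium uptake in the distal nephron, read 11.95, 12.06, 12.02 and 12.01 on the CR arrays and 13.35, 13.39, 13.53 and 13.35 on the AL arrays, and fell by 1.39 (SE 0.22). Tsc22d3, the glucocorticoid-induced leucine zipper protein, read 8.08, 7.69, 7.95 and 7.22 on the CR arrays and 9.35, 9.34, 9.35 and 9.51 on the AL arrays, and fell by 1.65 (SE 0.47). CR array 4 was the lowest of the 8 for that gene.

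Further falls on the list were those of the kinase Map3k6 (-1.43), the transcription factors Klf15 (-1.22), Cebpd (-0.87) and Klf9 (-0.55), the small GTPase Rasd1 (-1.10), the growth factor binding protein Igfbp1 (-0.90) and the phosphatase Dusp1 (-0.24). The sulfotransferase Sult1a1 fell by 1.55 and the flavin monooxygenase Fmo2 by 1.46, and both are also xenobiotic enzymes. Pck1 and Angptl4 are counted on this list too. Per1 and Igfbp1 appear again with the clock and nutrient sensing genes, so that these lists are not separate results. Neither receptor was called. Nr3c1, the glucocorticoid receptor, read 9.09, 8.97, 9.06 and 9.01 on the CR arrays and 9.24, 9.27, 9.17 and 9.01 on the AL arrays, with overlapping groups (change -0.14, adjusted p = 0.809), and the mineralocorticoid receptor Nr3c2 stood at a change of 0.03 (adjusted p = 0.824). Of the enzymes that set the hormone inside the cell, Hsd11b1, which regenerates it, stood at -0.09 (adjusted p = 0.358). Hsd11b2, which inactivates it and protects the mineralocorticoid receptor, read 13.36, 13.49, 13.44 and 13.23 on the CR arrays and 12.78, 12.78, 12.97 and 13.00 on the AL arrays, and rose by 0.50 (adjusted p = 0.0327). Its second probe stood at 0.89 and was not called, and the array median scaling took the call away. The count of lower genes on this list was 11 with either pair of CR arrays alone, 11 with the slide series as a block and 17 within the slide series that held both diets.

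Genes of gluconeogenesis and amino acid breakdown fell in part. Pck1, which makes phosphoenolpyruvate from oxaloacetate, read 13.66, 13.76, 13.71 and 13.86 on the CR arrays and 14.77, 14.85, 14.79 and 14.96 on the AL arrays, and fell by 1.09 (SE 0.25, adjusted p = 1.16e-04). G6pc1, which releases free glucose, fell by 0.96 (SE 0.26, adjusted p = 2.54e-04). Serine dehydratase (Sds), which turns serine into pyruvate, fell by 1.71 (SE 0.41) at the probe with the highest mean, and both of its probes were called. In all 7 of the 43 tested genes were lower (16.3%), 0 higher and 36 not called (median -0.16). Arg2, Shmt2 and Gldc, which act on amino acids, were among the others that fell. With CR arrays 2 and 4 alone 4 were called, with the slide series as a block 4 and within the slide series with both diets 14.

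Clock genes changed in part. Of 19 tested, 5 were lower and 1 higher, and 3 were lower with the slide series as a block. Beside Per1, the deubiquitinase Usp2 fell by 1.10 (SE 0.24), the repressor Bhlhe41 by 0.53 and Per2 by 0.20, the last with a second probe not called. The output factor Dbp rose by 0.36 (adjusted p = 0.0377; 0.0539 to 0.111 with any 1 array left out), and was not called after array median scaling. The core activators Bmal1 and Clock stood at -0.10 and -0.11, Cry1 at 0.17 and Nr1d1 at -0.08, and none of these was called (adjusted p between 0.0979 and 0.689). Of nutrient sensing genes, 5 of 44 were lower and 0 higher, with 3 lower without CR array 2 or 4 or AL array 1 or 2 and 2 with CR arrays 1 and 3 alone. Igfbp3, the main carrier of IGF-1 in blood, fell by 0.95 (SE 0.20), Igfbp1 by 0.90 and the growth hormone receptor Ghr by 0.63. Igf1 itself read 10.46, 10.34, 10.29 and 10.11 on the CR arrays and 9.87, 9.89, 9.86 and 9.90 on the AL arrays. Its groups did not overlap, but at 0.42 it was not called (adjusted p = 0.0624). The insulin receptor Insr stood at -0.29 (adjusted p = 0.0565), Foxo1 at 0.12, Mtor at -0.32 and the deacetylase Sirt1 at 0.56, none of them called.

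**Figure D4:**
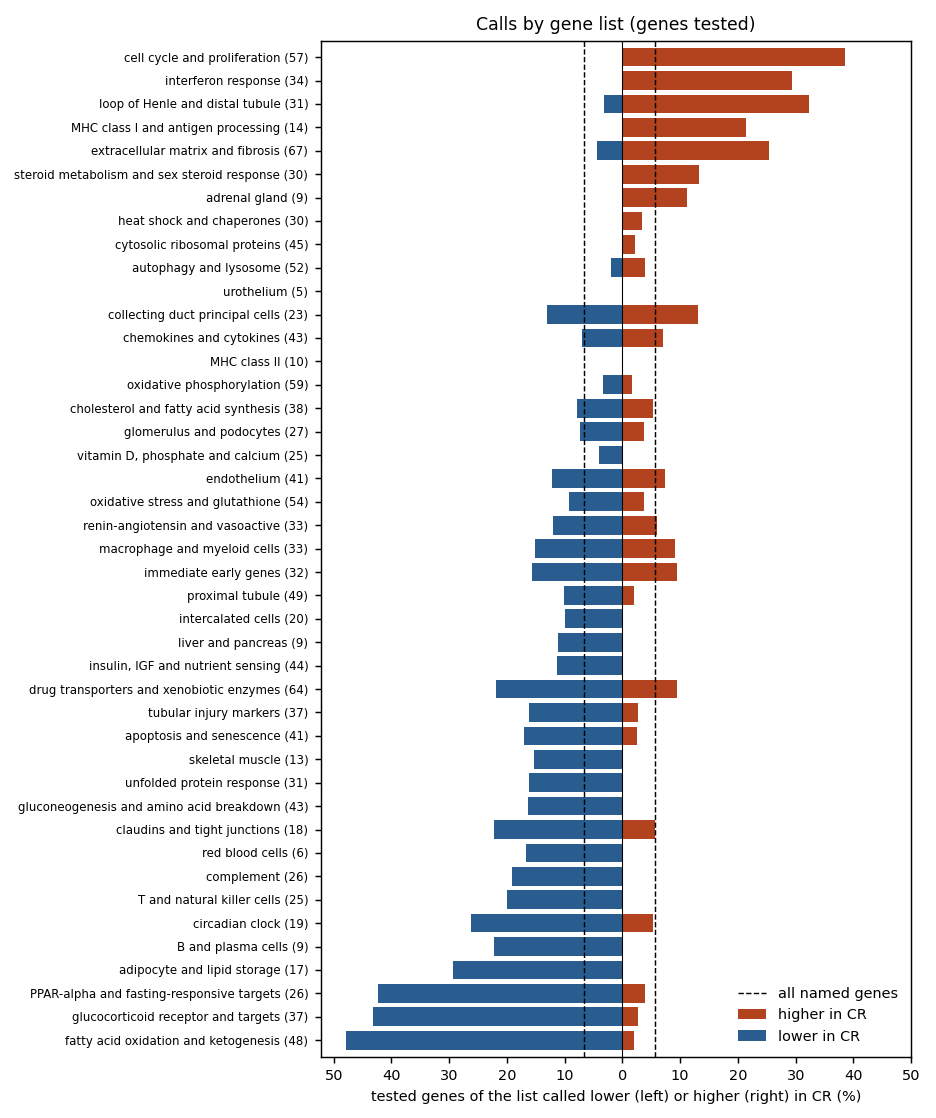
Share of the tested genes of each of 43 lists called lower in CR (bars to the left) or higher in CR (bars to the right), in percent, with the number tested in brackets and the shares over all named genes as broken lines (6.73% lower, 5.62% higher). Fatty acid oxidation (47.9% lower) and cell cycle (38.6% higher) stand at the ends in this fit over all arrays.

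Genes of cell division rose in part. Of 57 tested genes of the cell cycle, 22 were higher (38.6%, background 5.62%), 0 lower and 35 not called, with a median change of 0.37. Ube2c, the ubiquitin-conjugating enzyme of the anaphase-promoting complex, read 9.04, 8.997, 8.82 and 8.99 on the CR arrays and 7.79, 7.93, 7.64 and 7.68 on the AL arrays. It rose by 1.20 (SE 0.21, adjusted p = 1.57e-05), with a gap between the groups. Prc1, which bundles the microtubules of the central spindle, read 10.11, 10.39, 10.26 and 10.66 on the CR arrays and 9.30, 9.32, 9.35 and 9.59 on the AL arrays, and rose by 0.96 (SE 0.24, adjusted p = 4.84e-04). Cdk1, the kinase that drives entry into mitosis, read 9.06, 9.13, 9.18 and 8.95 on the CR arrays and 8.37, 8.43, 8.47 and 8.27 on the AL arrays, and rose by 0.69 (SE 0.24, adjusted p = 0.00135) with both of its probes called. The proliferation antigen Mki67 read 9.48, 9.01, 9.46 and 9.08 on the CR arrays and 8.65, 8.69, 8.63 and 8.73 on the AL arrays, and rose by 0.58 (adjusted p = 0.018). CR arrays 1 and 3, the joined pair, stood above CR arrays 2 and 4 for Mki67, by changes of 0.80 and 0.37 over AL, and the call was lost without CR array 1, CR array 3 or AL array 3 (adjusted p 0.0526 to 0.0555).

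Prc1, Cdk1, Mki67 and the topoisomerase Top2a, which rose by 0.80, are shown with the 250 bases before their start, since mitotic genes are known to share a pair of promoter elements. These are the cell cycle genes homology region, searched as TTTGAA, and the CCAAT box, searched as CCAAT, each on both strands. The sequences are RefSeq's for GRCr8, read on the gene's own strand, with both elements in capitals. On the other strand CCAAT reads ATTGG and TTTGAA reads TTCAAA. In Mki67 a TTTGAA and a CCAAT on the other strand overlap by 1 base. The regions are chr1:143659231-143659480 on the plus strand for Prc1, chr20:19265043-19265292 on the plus strand for Cdk1, chr1:199952594-199952843 on the minus strand for Mki67 and chr10:84473094-84473343 on the minus strand for Top2a.
Prc1: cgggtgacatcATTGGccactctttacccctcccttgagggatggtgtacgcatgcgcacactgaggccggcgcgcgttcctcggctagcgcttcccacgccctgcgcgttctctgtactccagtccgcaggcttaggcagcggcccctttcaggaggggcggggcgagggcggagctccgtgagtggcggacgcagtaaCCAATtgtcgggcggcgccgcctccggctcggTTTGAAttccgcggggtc
Cdk1: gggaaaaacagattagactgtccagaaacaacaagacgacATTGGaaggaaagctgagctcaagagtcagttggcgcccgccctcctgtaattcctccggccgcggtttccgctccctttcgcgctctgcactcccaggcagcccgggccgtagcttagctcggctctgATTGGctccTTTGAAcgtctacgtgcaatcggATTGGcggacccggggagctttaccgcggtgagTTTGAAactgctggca
Mki67: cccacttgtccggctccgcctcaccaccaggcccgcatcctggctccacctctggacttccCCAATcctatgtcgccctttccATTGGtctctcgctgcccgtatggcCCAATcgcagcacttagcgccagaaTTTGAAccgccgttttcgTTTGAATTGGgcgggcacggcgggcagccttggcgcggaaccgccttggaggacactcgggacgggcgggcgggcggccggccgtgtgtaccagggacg
Top2a: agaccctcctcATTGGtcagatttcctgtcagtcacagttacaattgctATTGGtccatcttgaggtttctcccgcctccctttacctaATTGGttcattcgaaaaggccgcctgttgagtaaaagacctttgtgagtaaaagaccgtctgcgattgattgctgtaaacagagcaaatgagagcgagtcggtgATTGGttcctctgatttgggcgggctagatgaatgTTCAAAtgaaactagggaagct
Of the called cell cycle genes 17 had a promoter in the RefSeq table, and TTTGAA stood in 10 of these (58.8%) and CCAAT in 15 (88.2%). Over all 46 tested cell cycle genes with a promoter the shares were 32.6% and 76.1%, and over all 33469 promoters 16.2% and 34.0%. Here and below, genes of a list were counted with 1 promoter each, while the shares over all promoters were not reduced to 1 per gene. These are matches of letters, not sites shown to be bound. The same windows of other lists were searched on both strands for 3 further elements. The PPAR element (AGGNCA, repeated after 1 base of any kind) stood in 0 of 18 called and 0 of 39 tested promoters of fatty acid oxidation genes, and in 0.368% of all promoters. The glucocorticoid element (GNACA and TGTNC with 3 bases of any kind between them) stood in 1 of 15 called and 2 of 32 tested promoters of its list, against 0.373% of all. The E-box (CACGTG) stood in 1 of 4 called and 3 of 15 tested clock promoters, against 5.59% of all.

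The other called genes included the cyclins Ccna2 (0.73) and Ccnb1 (0.77), the kinesins Kif20a (0.85) and Kif22 (0.66), the centromere proteins Cenpf (0.90) and Cenpw (0.82), the survivin gene Birc5 (0.86), Nusap1 (0.67), Pbk (0.71), Pclaf (0.76), Pttg1 (0.49), Bub1 (0.40) and the transcription factor Foxm1 (0.51). Pimreg, a mitotic regulator above background on all CR arrays and 1 of 4 AL arrays, was called higher, but the size rests on the floor, with a change of 1.89 and of 0.65 with the floor 4 times as high. Pcna, the sliding clamp of replication, read 7.18, 7.14, 7.11 and 7.23 on the CR arrays and 7.36, 7.46, 7.27 and 7.003 on the AL arrays with overlapping groups (change -0.11, adjusted p = 0.895), and Ccnd1 and the inhibitor Cdkn1a stood at -0.18 and -0.27, not called. None of the 6 replicative helicase subunits tested (Mcm2 to Mcm7) was called. With CR arrays 1 and 3 alone 15 genes were called higher, with CR arrays 2 and 4 alone 13, with the slide series as a block 15 and within the slide series with both diets 26.

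Interferon response genes were higher in a smaller step. Of 34 tested, 10 rose (29.4%) and 0 fell, with a median of 0.28. Usp18, which removes the ubiquitin-like protein ISG15 and restrains the interferon receptor, rose by 0.91 (SE 0.36, adjusted p = 0.0054), with a second probe at 0.19 that was not called. Rsad2, the antiviral enzyme viperin, read 10.20, 10.11, 10.09 and 9.82 on the CR arrays and 9.24, 9.29, 9.25 and 9.43 on the AL arrays, and rose by 0.75 (SE 0.20, adjusted p = 2.69e-04) without overlap. Irf7, the factor that amplifies the response, read 10.53, 10.56, 10.59 and 10.68 on the CR arrays and 9.89, 9.76, 9.96 and 9.95 on the AL arrays, and rose by 0.70 (SE 0.31, adjusted p = 0.01), and was not called after array median scaling. Mx1 rose by 0.65, Isg15 by 0.58, Ifi47 by 0.57, Rtp4 by 0.47 and Parp14 by 0.37. Of the factors that carry the signal to the nucleus, Irf9 rose by 0.42 and Stat2 by 0.26, the call of Stat2 being lost with any 1 array left out (adjusted p 0.0505 to 0.126). The promoters of Rsad2 (chr6:48788121-48788370, minus strand) and Irf7 (chr1:205800024-205800273, minus strand) are shown because both hold the interferon-stimulated response element, searched on both strands as a pair of GAAA runs with 2 bases of any kind between them, and given in capitals (TTTC runs on the other strand).
Rsad2: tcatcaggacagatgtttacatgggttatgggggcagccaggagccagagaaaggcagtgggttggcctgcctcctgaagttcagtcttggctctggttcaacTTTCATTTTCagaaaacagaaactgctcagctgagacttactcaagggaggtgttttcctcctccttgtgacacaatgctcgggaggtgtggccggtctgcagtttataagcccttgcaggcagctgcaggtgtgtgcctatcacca
Irf7: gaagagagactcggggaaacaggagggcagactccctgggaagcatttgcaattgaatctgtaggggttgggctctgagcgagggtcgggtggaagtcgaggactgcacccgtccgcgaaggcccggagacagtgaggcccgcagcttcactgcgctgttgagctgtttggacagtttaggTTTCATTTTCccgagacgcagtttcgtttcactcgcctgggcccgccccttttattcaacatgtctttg
That element stood in 3 of the 7 called genes with a promoter (42.9%), in 16 of all 23 tested ones (69.6%) and in 3.41% of all promoters. The count of called genes rests on the scaling and on single arrays: 4 were called after array median scaling, 2 with CR arrays 1 and 3 alone, 4 with CR arrays 2 and 4 alone, 5 with the slide series as a block and 6 without AL array 3. The median of the list was above 0 in each of these. Of 14 class I MHC and antigen processing genes 3 were also higher, RT1-S3, Psmb9 and Tapbp (by 0.33, 0.36 and 0.83). After array median scaling 1 was called higher and 2 lower, and 0 were called with either pair of CR arrays alone or without AL array 2. Of 10 class II genes none was called.

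Matrix genes also rose in part. Of 67 tested, 17 were higher (25.4%), 3 lower and 47 not called (median 0.21). Postn, periostin, a matrix protein of remodelling tissue, read 7.73, 7.52, 7.63 and 7.41 on the CR arrays and 6.45, 6.46, 6.48 and 6.37 on the AL arrays, and rose by 1.13 (SE 0.50, adjusted p = 0.0232). Leaving out any 1 array other than CR array 4 took that call away (adjusted p 0.0556 to 0.0609). Fibrillin 1 (Fbn1) rose by 0.90 (SE 0.25), the basement membrane chains Col15a1 and Col4a1 by 0.56 and 0.45, Col6a3 by 0.52, elastin (Eln) by 0.41, tenascin C (Tnc) by 0.42 and fibronectin (Fn1) by 0.31. The chains of the main fibrillar collagen were in part called. Col1a1 read 10.58, 10.68, 10.71 and 11.03 on the CR arrays and 10.24, 10.41, 10.23 and 10.31 on the AL arrays, not called at 0.46 (adjusted p = 0.0699), while its other probe was called at 0.82, and Col1a2 stood at 0.21 (adjusted p = 0.199). Tgfb1, the leading profibrotic cytokine, stood at -0.13 with overlapping groups. Those that fell included Mmp7 and decorin (Dcn, by 0.63). After array median scaling 5 genes were called higher in place of 17, without AL array 3 11, and with CR arrays 1 and 3 or 2 and 4 alone 9 and 11. The median of the list after that scaling was 0.07.

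Distal tubule genes showed the same dependence. Of 31 tested genes of Henle's loop and the distal tubule, 10 were higher (32.3%) and 1 lower (median 0.18). Umod, uromodulin, the most abundant protein of normal urine, read 14.36, 14.23, 14.43 and 14.11 on the CR arrays and 13.84, 13.52, 13.73 and 13.97 on the AL arrays, and rose by 0.51 (SE 0.21, adjusted p = 0.00792), a call that array median scaling took away. Slc12a3, the thiazide-sensitive sodium chloride cotransporter, rose by 0.51 (adjusted p = 0.00501), with a second probe at 0.18 that was not called, and its regulators Klhl3 and Wnk4 rose by 0.52 and 0.36. The potassium channel Kcnj1 rose by 0.48 and the phosphatase inhibitor Ppp1r1b by 0.86 (SE 0.19), and Kcnj16 fell by 0.66. Slc12a1, the loop's own cotransporter, stood at 0.07 with overlapping groups. After array median scaling 1 gene was called higher, and 6 were without CR array 1, AL array 2 or AL array 3.

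**Figure D5:**
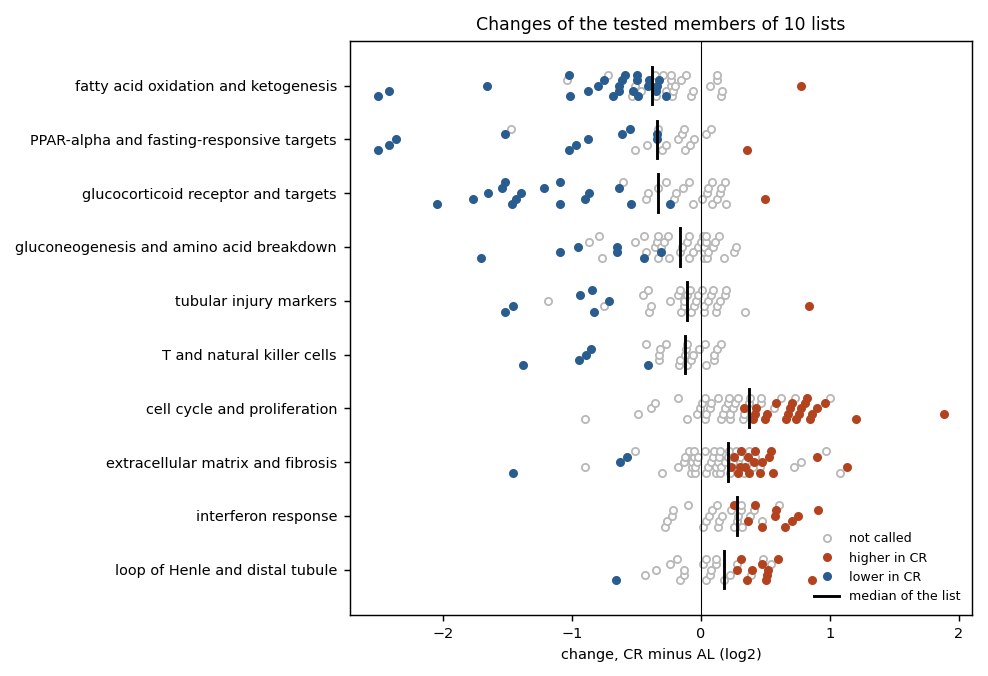
Change in log2 intensity, CR minus AL, of each tested gene of 10 lists (circles, filled where called) with the median of each list as a bar. The medians lie at -0.38 for fatty acid oxidation, -0.33 for glucocorticoid targets and 0.37 for the cell cycle.

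Tubular injury and immune markers were lower in part. Havcr1, the kidney injury molecule that damaged proximal tubules make, read 13.21, 13.25, 13.27 and 13.35 on the CR arrays and 14.22, 14.17, 14.30 and 14.16 on the AL arrays. It fell by 0.94 (SE 0.31, adjusted p = 0.00151), and its second probe stood at -0.80 and was not called. Mmp7, matrilysin, a protease of injured epithelium, read 7.43, 7.36, 7.47 and 7.53 on the CR arrays and 8.93, 8.92, 8.88 and 8.92 on the AL arrays, and fell by 1.46 (SE 0.21, adjusted p = 1.80e-04). Cldn7, a claudin of distal tight junctions, read 7.07, 7.11, 7.25 and 7.38 on the CR arrays and 10.06, 9.93, 9.97 and 9.81 on the AL arrays, and fell by 2.74 (SE 0.26, adjusted p = 8.78e-07). None of these groups overlapped. Of 18 claudin and tight junction genes 4 were lower and 1 higher, with 2 and 0 for either pair of CR arrays alone. Of 37 injury markers 6 were lower and 1 higher (16.2% lower, median -0.11; 5 lower with any 1 array left out and 12 within the slide series with both diets), with fibrinogen (Fgb) at least 1.74-fold lower, below background on all CR arrays (a call lost with the floor 4 times as high, adjusted p = 0.176, and in the authors' deposited values), and Pigr, Gdf15 and Cp lower by 0.85, 0.83 and 0.72. The 1 that rose was Tff3, a trefoil peptide of mucosal repair, by 0.84 (SE 0.20) with both probes called. The classical injury markers Lcn2, Spp1 and Clu stood at 0.12, -0.08 and -0.04 with overlapping groups (adjusted p between 0.743 and 0.937).

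S100a9, a subunit of the neutrophil protein calprotectin, read 8.26, 8.38, 8.38 and 8.31 on the CR arrays and 9.72, 9.71, 9.79 and 9.83 on the AL arrays, and fell by 1.43 (SE 0.19, adjusted p = 7.75e-07), and its partner S100a8 fell by 1.28 (SE 0.61). The macrophage mannose receptor Mrc1 fell by 0.86, while Adgre1, the F4/80 antigen, rose by 0.38 (adjusted p = 0.039) with overlapping groups. In all 5 of 33 myeloid genes were lower and 3 higher. With any 1 array left out 3 to 5 were lower and 1 to 4 higher, and after array median scaling 5 were lower and 0 higher. Cd68 and the pan-leukocyte marker Ptprc stood at -0.02 and -0.13, not called. Of 25 genes of T and natural killer cells 5 were lower and 0 higher (median -0.12). The called genes, known from cytotoxic cells, were the granzymes Gzmk (-1.38, and -0.67 with the floor 4 times as high, above background on 1 of 4 CR arrays) and Gzma (-0.89), perforin (Prf1, -0.41), Nkg7 (-0.85) and the chemokine Ccl5. Ccl5 read 11.51, 11.48, 11.59 and 11.58 on the CR arrays and 12.51, 12.43, 12.43 and 12.56 on the AL arrays, and fell by 0.94 (SE 0.25, adjusted p = 2.18e-04). Cd3e, a chain of the T cell receptor complex, stood at -0.06 (adjusted p = 0.682). Without CR array 3 or without AL array 1 the count was 3. The summed normalised intensity of the 25 T and natural killer genes was 15177 to 15794 in CR and 19911 to 20887 in AL, and that of 32 myeloid genes 63531 to 65192 in CR and 66309 to 68779 in AL. The part of these cells in the other lists was not tested.

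Among B cell genes, the immunoglobulin joining chain Jchain read 9.79, 9.88 and 9.59 on CR arrays 2 to 4 (array 1 had no usable spot) and 10.74, 10.63, 10.70 and 10.91 on the AL arrays, a fall of 0.99 (SE 0.24). Cd79b, a part of the B cell receptor, stood at -0.04. Complement had 5 of 26 genes lower and 0 higher (median -0.30), with C3 lower by 0.46 and C1qb by 0.52. Masp2, above background on 1 of 4 CR arrays, was called at -1.10, but not with the floor 4 times as high (-0.43, adjusted p = 0.202), with CR arrays 2 and 4 alone (adjusted p = 0.116) or with the slide series as a block (adjusted p = 0.0836). From 3 to 4 were called with any 1 array left out and 11 within the slide series with both diets. Cytokines went both ways, 3 higher and 3 lower of 43. Il1b, a cytokine of activated macrophages, read 9.29, 9.08, 9.19 and 9.10 on the CR arrays and 8.09, 8.30, 8.18 and 8.23 on the AL arrays, and rose by 0.97 (SE 0.22, adjusted p = 5.50e-05) without overlap. Cxcl9 and Cxcl13 rose by 0.92 and 0.67, whereas Cxcl11 and Il24 fell by 0.71 and 0.62. Tnf stood at 0.13, not called.

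Transporters and metabolising enzymes held some of the largest single changes. Akr1b7, an aldose reductase of lipid detoxification, read 9.48, 9.49, 9.51 and 9.48 on the CR arrays and 6.51, 6.69, 6.38 and 6.53 on the AL arrays. The groups lay far apart, and the gene rose by 2.96 (SE 0.44, adjusted p = 1.67e-05), the largest rise of a named gene under the rule used here. As the gene is also strong in the adrenal cortex, adrenal markers were read beside it. It was the 1 gene of 9 called on the adrenal list. Cyp11a1 stood at 5.10 to 5.59 in CR and 5.41 to 5.68 in AL, Th at 8.03 to 8.13 in CR and 7.87 to 8.16 in AL, and Cyp11b1 was too dim to be tested. The sum over the 8 adrenal genes on all arrays was 3023 to 3347 in CR and 2237 to 2447 in AL. It includes Akr1b7 itself, so that it is no reading of the other adrenal genes. A part of adrenal tissue in the rise was not tested. Slco1a1, an organic anion transporter of the male proximal tubule, read 6.499, 6.42, 6.67 and 6.46 on the CR arrays and 3.60, 3.28, 4.98 and 3.85 on the AL arrays. It was called higher at 2.58, and at 1.56 with the floor 4 times as high. AL array 3 was the only AL array above background, so that the size rests on the floor, and the second probe was near background in both groups (0.21, not called). Slco1a4, above background on 2 of 4 CR arrays and on none of the AL arrays, was at least 1.16-fold higher. The export pump Abcc2 read 7.43, 7.53, 7.54 and 7.54 on the CR arrays and 5.92, 6.04, 6.07 and 5.98 on the AL arrays, and rose by 1.51 (SE 0.23) at 1 probe, with the other at -0.03 and not called.

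Of the 64 drug transporters and xenobiotic enzymes, 6 were higher and 14 lower (9.38% and 21.9%). Falls included Por, the electron donor of microsomal cytochrome P450 enzymes, by 1.13 (adjusted p = 0.0442; 0.0608 to 0.121 with any 1 array left out), Cyp2d4 by 0.90, Cyp2e1 by 0.68, Fmo5 by 0.64 and Ephx2, the soluble epoxide hydrolase, by 0.27. From 7 to 10 genes were lower with any 1 array left out, 4 and 7 with CR arrays 1 and 3 or 2 and 4 alone, and 4 with the slide series as a block. In the oxidative stress list catalase (Cat) read 8.44, 8.29, 8.27 and 8.21 on the CR arrays and 7.16, 7.40, 7.11 and 7.55 on the AL arrays, and rose by 0.998 (SE 0.55, adjusted p = 0.0435; 0.0612 to 0.113 with any 1 array left out). Gclc, the limiting enzyme of glutathione synthesis, rose by 0.60, and Mgst1 and Gsta2 fell by 0.60 and 0.46 (for Mgst1, adjusted p 0.0548 to 0.103 with any 1 array left out). That list had 2 higher and 5 lower of 54, near the background, and 1 higher and 2 to 4 lower with any 1 array left out. The regulator Nfe2l2 stood at 0.02.

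Most segment markers were not called. The water channel Aqp1 read 6.18, 6.76, 5.80 and 6.71 on the CR arrays and 8.24, 7.83, 8.03 and 7.84 on the AL arrays. It fell by 1.62 (SE 0.85, adjusted p = 0.0384; 0.0590 to 0.106 with any 1 array left out), and the CR arrays fell into their pairs, 1 and 3 lower than 2 and 4. The dicarboxylate transporter Slc13a2 fell by 0.52, with 2 of its 3 probes called, and the bicarbonate cotransporter Slc4a4 by 0.49. Cubn, cubilin, stood at -0.72 without overlap but was not called (adjusted p = 0.168), and the glucose transporter Slc5a2 at 0.26. Principal cell markers (Aqp2 at 0.53, Scnn1g at -0.10), the intercalated cell marker Atp6v1b1 (0.22) and the podocyte markers Nphs1 and Wt1 (-0.04 and -0.09) were not called. Of 23 principal cell genes 3 were higher and 3 lower, but 0 were higher after array median scaling or without CR array 2 or 3 or AL array 1, 2 or 3. Of 20 intercalated cell genes 2 were lower and 0 higher, with the proton pump subunit Atp6v1g3 at -0.36. Of 27 genes of the glomerulus and podocytes 2 were lower, Pla2r1 (-0.61) and Clic5 (-0.46), and the basement membrane chain Col4a4 was higher (0.29). Of 41 endothelial genes 3 were higher and 5 lower. Pecam1, Cdh5 and Kdr stood at 0.09, 0.06 and -0.25, not called, while the sialomucin Emcn fell by 0.42, the angiopoietin receptor Tek by 0.39 and the lymphatic marker Lyve1 by 0.75, and the apelin receptor Aplnr rose by 0.94 at 1 of 2 probes. With CR arrays 1 and 3 alone 0 endothelial genes were called lower and 3 higher, and array median scaling took away the calls of Atp6v1g3, Col4a4 and Tek.

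Genes of endoplasmic reticulum stress were lower in part. Of 31 genes of the unfolded protein response 5 were lower and 0 higher, with Dnajb9 lower by 0.94, Creld2 by 0.78 (SE 0.22) and the chaperone Hspa5 by 0.58. After array median scaling 8 were called. Of 41 genes of apoptosis and senescence 7 were lower and 1 higher (17.1% lower). Those that fell included the survival factor Mcl1 (by 0.65), the death inducers Bid (by 0.60) and Faslg (by 0.46) and the growth arrest genes Gadd45a and Gadd45b (by 0.40 and 0.34), and the pro-apoptotic Bak1 rose by 0.29, though not after array median scaling, where 0 of the list were higher. The immediate early gene Fos read 10.42, 10.50, 10.22 and 10.34 on the CR arrays and 9.52, 9.56, 9.54 and 9.50 on the AL arrays, and rose by 0.83 (SE 0.25, adjusted p = 4.69e-04) with both probes called, whereas Zfp36, which destabilises cytokine mRNA, fell by 1.02. At Nr4a3, 1 probe fell by 1.16 and another was called higher with none of the AL arrays above background, so that the gene has no single direction here. Heat shock genes (1 of 30 called), ribosomal proteins (1 of 45) and autophagy and lysosome genes (2 higher and 1 lower of 52, and 0 higher without AL array 2, 3 or 4) stayed under the background share.

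Several of the largest changes fell on dim genes, for which 1 group was not above background on any array and the change is a bound. Mepe, a phosphate-regulating matrix protein of bone, was at least 2.27-fold higher in CR, the sodium-hydrogen exchanger Slc9a5 at least 2.08-fold higher and the metalloproteinase Mmp3 at least 1.56-fold higher, a call that was lost with the floor 4 times as high (adjusted p = 0.582). Retnla, a marker of alternatively activated macrophages, was at least 3.14-fold lower in CR, Lyzl4 at least 4.07-fold lower, Mog, a myelin protein, at least 3.63-fold lower, and the protocadherin Pcdh20 at least 2.43-fold lower. Among the 8 arrays these genes were above background only in the group where they were high, so that their calls are no support. The zinc finger repressor Zfp354a, known from developing and injured kidney, fell by 1.95 (SE 0.31) and the lipase Pnliprp2 fell by 1.78 (SE 0.26), both well above background. Ddx6, an RNA helicase, rose by 1.96 (SE 0.28) at 1 probe, with the other at 0.15 and not called, and the adhesion molecule Ncam1 rose by 1.13 (SE 0.20).

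Where a gene had several probes, agreement between them is a check that does not rest on 1 sequence. Of 2564 genes with several tested probes, 74 had all of them called in 1 direction with no overlap at any, 29 higher and 45 lower, and 5 had probes called in both directions. Over all tested probes, 13.4% were called and 32.5% had groups without overlap. Some genes named above had a called probe beside one that was not called and had the opposite sign or a change near 0: C3 (0.07), Lipe (0.11), Tnc (-0.05), Fn1 (0.07) and Wnk4 (-0.19). For Igfbp3 (-0.90), Mcl1 (-0.70), Ghr (-0.21), Bhlhe41 (-0.42), Dbp (0.53), Col4a1 (0.28), Col15a1 (0.33 and 0.47), Acad11 (-1.19), Slc27a2 (-1.44), Retsat (-0.77), Acsl1 (-0.37), Arg2 (-0.58), Gclc (0.26) and Parp14 (0.18) the probe not called had the sign of the call. Ordered by the smallest change over their probes, Fkbp5, Per1, Sds, Fmo2, Zhx3, Eml2, Usp2 and Cyp26b1 led the falls, and Kiaa1755, Tmem100, Cenpw, Tff3, Fos, Tnfrsf4, Cdk1 and Cnn1 the rises. Zhx3, a transcriptional repressor, read 9.86, 10.00, 9.89 and 9.95 on the CR arrays and 11.27, 11.13, 11.27 and 11.15 on the AL arrays, and fell by 1.28 (SE 0.20). Cyp26b1, which degrades retinoic acid, fell by 0.83 (SE 0.23). Kiaa1755 rose by 1.05 (SE 0.23), Tmem100, a membrane protein of vascular cells, by 1.04 (SE 0.32), the receptor Tnfrsf4 of activated T cells by 0.76 and the smooth muscle protein Cnn1 by 0.84.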

How the data were processed

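Per the file headers, arrays were read with CodeLink Expression Analysis 4.1.0.29054, whose raw intensity has the local background of each spot already subtracted. The authors' deposited value table, with its scale and centring not stated, holds by its values a ratio, the median-scaled intensity of a probe over a constant for that probe. Spots marked as contaminated, irregular or masked were left out. Raw intensity was quantile normalised over 12 arrays, floored at 7.7 (from negative controls) and turned to log2. Probes above background on at least 4 of 12 arrays, with at least 2 values per group, were tested with limma 3.58.1 (R 4.3.3) over arrays, with Benjamini-Hochberg adjustment and a threshold of 0.05. The test was checked on simulated data in which every array was drawn independently. That check does not cover arrays that share a sample.

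Of the probes, 17061 had 1 gene symbol (183 through a RefSeq accession), 182 several and 16606 none, and only the first were named. The tested probe with the highest mean stood for a gene. Named were the 14 largest rises and falls without overlap, the 8 largest each way among genes whose probes were all called alike, and in each list the largest rise, the 3 largest changes in the commoner direction and genes of a defining role. Further called list members, such as Top2a, were named after their values were seen. Members, lists and rules were chosen with earlier results of these data known. Some genes that this rule picks are not reported here. For a group below background on all its arrays, the fold is a bound.

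Joined arrays differed no more than repeat spots of a control probe, except AL arrays 1 and 4, each of which lay within that limit of the other AL arrays. Same-numbered CR and AL arrays deviated together with correlations of 0.102, -0.0199, 0.0358 and 0.113, and arrays of different numbers with -0.141 to 0.0623. These small values do not settle whether the numbers pair the arrays. Alternatives were other scalings, starting values, floors and filters, joined arrays, slide series, the replicate block and each array left out. The number of arrays limits the precision. Nothing says that arrays came from separate rats.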

Additional observations from a re-analysis of the deposited data

Results flagged for a closer look

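Single arrays stood apart from the other 3 of their group at 16 of 329 groups of 4 values (4.86%), and chance gives about 1 in 20. Each value below is log2 normalised intensity, and the array lay far from its group by the gap to its nearest neighbour over the group's range. On the CR side, Abcc2 read 7.43 on array 1 (7.53 to 7.54 on the others) and Lyzl4 3.87 on array 2, where the other arrays were at the floor of 2.94. CR array 4 stood apart for Slc13a2 at 11.15 (10.82 to 10.86), for Prlr at 7.69 (7.93 to 7.97) and for Zfp36 at 9.53 (9.36 to 9.38).

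AL array 3 stood apart for Bhlhe41 at 9.34 (9.42 on the others), for Hspa5 at 12.76 (12.58 to 12.60) and for Th, an adrenal marker, at 7.87 (8.11 to 8.16). AL array 4 was high for Tsc22d3 at 9.51 (9.34 to 9.35), for Pnpla2 at 12.83 (12.78 to 12.79), for Cdkn1a at 12.63 (12.53 to 12.55) and for Bak1 at 10.94 (10.75 to 10.78). It was low for RT1-S3 at 11.02 (11.06 to 11.07), for Il24 at 9.69 (9.82 to 9.83), for Mtor at 9.22 (9.46 to 9.48) and for Cd79b at 10.88 (10.94 to 10.95). In the Tsc22d3, Pnpla2, RT1-S3 and Il24 groups the call stands with every 1 array left out, except that RT1-S3 was not called without CR array 2 or AL arrays 2, 3 or 4.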

How the results depend on the processing

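Of the genes that the naming rule picked and that are printed here, 120 were called, and none of these turned its sign under any alternative run, while many calls were lost. Of those not called, 14 turned sign under at least 1. Where the groups of a called gene did not overlap, as for most of the 120, leaving out or joining arrays could not turn its sign. For such fits the unchanged sign is no support. Array median scaling gave 1019 probes higher in CR, the scanner's median-scaled intensity 1010, and the authors' deposited values 2226 called, of which 992 were higher. The 8 aged arrays alone called 7292 (3631 higher, 3661 lower). CR arrays 1 and 3 alone gave 1483 (828 higher, 655 lower), CR arrays 2 and 4 alone 1739 (933 and 806), and the slide series as a block 1479 (812 and 667). With arrays joined to 5 samples limma called 0 (0 higher, 0 lower), 1207 at an unadjusted p below 0.05, with a lowest adjusted p of 0.429. With any 1 array left out, 2118 to 2648 were called, 1167 to 1480 higher and 922 to 1168 lower. The lowest counts came without CR array 2 (2118) and without AL array 2 (2158) or 3 (2149). Among those 120, 31 lost the call without at least 1 array: Acta1, Adgre1, Aqp1, Avpr1a, Bak1, Cat, Cfd, Col4a4, Dbp, Ghr, Gzma, Hsd11b2, Hspa5, Irf9, Klhl3, Lpin1, Mgst1, Mki67, Mrc1, Per2, Por, Postn, Ppargc1a, Psmb9, Ptgs2, RT1-S3, S100a8, Srebf1, Stat2, Tapbp and Tek. Leaving out 1 array never removes a joined sample, so that the calls that stand are not shown to survive the loss of a sample. Over the joined samples 0 of the 120 were called. Array median scaling took away 25 calls. The replicate block gave 2649 (1506 higher, 1143 lower). The causes were not tested, beyond the smaller number of arrays or samples in some of these fits. The normexp correction was not run, since only background-subtracted values are given, and no fit could hold image date and diet together. The number of arrays, signal over background and the lone AL sample limit every p-value.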

Other observations

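Vasoactive genes went both ways, with 2 of 33 higher and 4 lower in CR. After array median scaling 0 were higher and 2 lower, without CR array 3 1 was higher, and without AL array 2 1 was lower. The angiotensin receptor Agtr1a fell by 0.25 and the vasopressin receptor Avpr1a by 0.65, while Ptgs2, the inducible cyclooxygenase, rose by 0.74 and the guanylate cyclase subunit Gucy1a1 by 0.45. Of 30 genes of steroid metabolism and sex steroid response 4 were higher and 0 lower, among them the prolactin receptor Prlr (by 0.63, with another probe at -0.60 that was not called) and Odc1, the first enzyme of polyamine synthesis, by 0.44. After array median scaling 2 were called higher and 1 lower. Kl, the kidney's klotho gene, stood at -0.21 with overlapping groups (adjusted p = 0.658).

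Of the probes called, 1736 had no single gene symbol and are not described by name. The skeletal muscle genes Myh2 and Acta1 fell by 1.46 and 0.45, while Ckm stood at -0.36 and was not called, and the summed level of the 13 muscle genes overlapped between the groups, at 5136 to 5707 in CR and 5218 to 5487 in AL.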
